A study of Mus musculus with 10 samples.

Results

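Long noncoding RNA (lncRNA) promoter regions were examined in the accessible chromatin of mouse sperm. The peak intervals of 10 ATAC-seq libraries were merged where they overlapped by at least 1 bp, and regions on chromosomes 1 to 19 with a peak in at least 2 libraries were kept. Of these 24550 regions, 776 (3.16%) had their nearest GENCODE M21 transcript start within 3 kb and belonging to a lncRNA gene, and these are the lncRNA promoter regions. They lay near the starts of 723 lncRNA genes, which is 7.67% of the 9421 lncRNA genes annotated on these chromosomes. The rule used the position of the peaks and their presence in 2 libraries, and did not use the diet. Sperm was taken from the cauda epididymis of wild type C57BL/6JRccHsd males, each library from 1 mouse, and ATAC-seq uses the Tn5 transposase to cut and tag open DNA. The F0 CD group (6 mice) received a standard chow, and the F0 WD group (4 mice) a Western diet rich in fat and sugar, for 6 months from 4 weeks of age. The study asked whether diet-induced obesity of the father changes sperm chromatin accessibility.

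In sperm most histones are replaced by protamines, small basic proteins that pack the DNA tightly, and open chromatin is therefore restricted. lncRNAs are transcripts without a coding frame, and their genes include intergenic units, antisense partners of coding genes, hosts of small RNAs and imprinted transcripts that act on their neighbours. A lncRNA promoter may be shared with a coding gene that is transcribed in the opposite direction. Mature sperm is held to be transcriptionally silent.

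The libraries differed in depth. They held 13366 to 29532 intervals, and the lowest background that could be solved from the peak statistics ran from 2.11 to 4.42 reads, while the fewest reads at a called summit ran from 9 to 13. A region without a peak may therefore still have held several reads. The sample titles give 6 chow and 4 Western diet mice, whereas the protocol in the labels gives these numbers the other way round, and the titles were followed. No promoter window of the 10 sperm and spermatid genes (Prm1, Prm2, Tnp1, Akap4 and others) had a peak in 2 or more libraries, nor did any of 10 epididymal and 6 immune genes. Of the 5 testicular germ cell and Sertoli genes, Kit and Stra8 had a peak in 2 libraries and Sox9 in 3. The defining genes of the labelled cell type were thus not marked by recurrent peaks.

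The regions with the strongest and most recurrent peaks included satellite and ribosomal sequence. The 101 bases around the strongest summit are shown for 4 of the 10 regions that ranked best among those found in all libraries, as the plus strand of GRCm38. All bases are in lower case, since no motif was marked in them.
Gm33838, chr9:35305389-35305489: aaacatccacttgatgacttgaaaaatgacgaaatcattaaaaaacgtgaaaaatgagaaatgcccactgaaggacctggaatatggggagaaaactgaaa
Gm26870, chr9:3038107-3038207: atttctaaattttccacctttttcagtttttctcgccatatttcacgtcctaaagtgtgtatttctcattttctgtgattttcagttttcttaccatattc
Gm15564, chr16:35981691-35981791: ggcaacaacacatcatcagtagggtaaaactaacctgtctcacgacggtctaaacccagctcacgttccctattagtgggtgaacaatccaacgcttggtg
Gm26917, chr17:39844165-39844265: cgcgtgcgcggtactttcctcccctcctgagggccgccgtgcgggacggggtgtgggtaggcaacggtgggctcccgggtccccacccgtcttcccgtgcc

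The windows of the regions that differed most between diets are shown next, in the same way, with capitals marking runs of at least 6 CA, AC, TG or GT units. The AC124430.1 and AU023070 regions are described without their sequences.
Gm49035, chr14:121518708-121518808: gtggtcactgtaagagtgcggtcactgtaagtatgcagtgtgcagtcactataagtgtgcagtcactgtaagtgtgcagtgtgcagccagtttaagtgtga
Gm32338, chr10:41138243-41138343: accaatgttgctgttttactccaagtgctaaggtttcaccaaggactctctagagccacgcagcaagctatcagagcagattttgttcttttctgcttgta
Gm48249, chr10:20284886-20284986: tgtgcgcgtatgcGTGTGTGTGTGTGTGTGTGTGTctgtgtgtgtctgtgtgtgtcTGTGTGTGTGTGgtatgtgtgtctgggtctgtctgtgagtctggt
CT025659.1, chr17:65914861-65914961: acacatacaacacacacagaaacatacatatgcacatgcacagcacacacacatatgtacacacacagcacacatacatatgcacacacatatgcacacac
1700126G02Rik, chr6:143218643-143218743: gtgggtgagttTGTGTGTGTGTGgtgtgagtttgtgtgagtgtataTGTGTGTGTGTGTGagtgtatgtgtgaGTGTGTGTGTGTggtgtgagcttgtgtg

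The windows of the imprinted genes Meg3 and Snhg14 are shown because they are the listed imprinted transcripts with a region closest to their starts.
Meg3, chr12:109548663-109548763: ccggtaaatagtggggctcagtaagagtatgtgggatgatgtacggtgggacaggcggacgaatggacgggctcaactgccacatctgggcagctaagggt
Snhg14, chr7:59862395-59862495: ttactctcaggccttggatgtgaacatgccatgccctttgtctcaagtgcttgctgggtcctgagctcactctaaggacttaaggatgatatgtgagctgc

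By gene type, 491 of the 776 regions (63.3%) lay at lincRNA genes, which are intergenic, and 194 (25.0%) at antisense genes. Another 62 lay at processed transcripts, 23 at sense intronic, 4 at sense overlapping and 2 at bidirectional promoter lncRNA genes. The mean number of libraries with a peak was 3.78 for lincRNA regions and 3.73 for antisense regions. It was 4.22 for sense intronic regions, of which there were few. Antisense regions were less often repeat-masked, with a median of 64.1% of their bases, than lincRNA regions, with 73.8%. These values describe the groups and were not tested.

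The peaks did not gather at the transcript starts. The start itself lay inside 26 of the 776 regions (3.35%), against 122 of 2337 protein-coding promoter regions (5.22%). A further 64 regions lay within 250 bp of the start without covering it, 277 in all lay within 1 kb, 262 between 1 and 2 kb, and 237 between 2 and 3 kb. The median distance from the region's edge to the start was 1357.5 bp, and 1288 bp for protein-coding promoter regions. The strongest summit lay upstream of the gene in 337 regions, in an intron in 356, in an exon in 38 and beyond the 3′ end of a short gene in 45. At the limit of the window, the Gm19866 region lay 3000 bp from its start and had peaks in 2 libraries. The Gm13174 region, just outside, lay 3002 bp away and had peaks in 3.

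**Figure D1:**
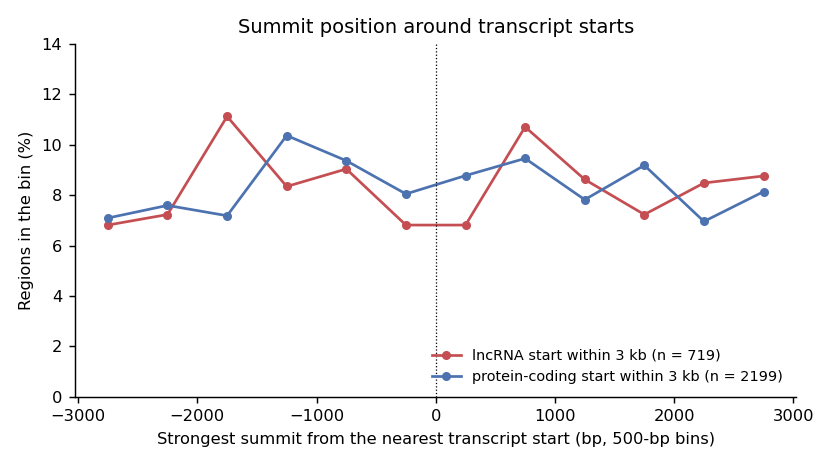
Position of the strongest summit relative to the nearest transcript start (x axis, bp, negative upstream, bins of 500 bp), as the percentage of regions in each bin (y axis) for 719 lncRNA and 2199 protein-coding promoter regions whose summits lie inside the window. The lncRNA bins hold between 6.82% and 11.1% of the regions, and the pair of bins beside the start are among the lowest, at 6.82% each.

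Most of the regions had no coding promoter nearby, which the rule sets in part. A region whose nearest start is a coding one falls in the protein-coding class, which held 9.52% of all regions. A protein-coding start also lay within 3 kb of 58 regions (7.47%), on the opposite strand in 55 of them, and in 34 of these both genes pointed away from each other. These 34 divergent regions had peaks in a mean of 4.53 libraries, and the 718 regions with no coding start nearby in a mean of 3.75. Of all 776 regions, 170 had their summit in an intron and 16 in an exon of a protein-coding gene. The 16 exonic regions had the lowest recurrence, with a mean of 2.69 libraries. At 5 regions the starts of 2 or more genes were at the same distance.

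Recurrence across mice was limited. Of the 776 regions, 316 (40.7%) had a peak in 2 libraries, 312 (40.2%) in 3 to 5, 129 (16.6%) in 6 to 9, and 19 (2.45%) in all 10. The share found in 2 libraries was 51.1% for protein-coding promoter regions and 45.3% for the 20338 regions with no start within 3 kb. The share found in all 10 was 2.91% and 1.93%, respectively.

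**Figure D2:**
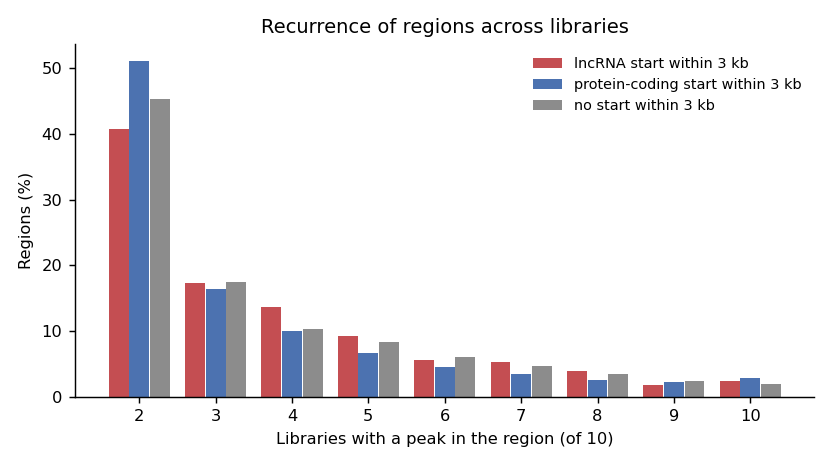
Percentage of regions (y axis) by the number of libraries with a peak (x axis, 2 to 10) for lncRNA promoter regions, protein-coding promoter regions and regions with no start within 3 kb. The lncRNA bars start at 40.7% for 2 libraries, the lowest of the 3 groups, and end at 2.45% for all 10.

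In GC and repeat content the lncRNA promoter regions lay closer to the regions away from promoters, and in CpG island-like composition between these and the protein-coding promoter regions. The median width was 364 bp and the median GC content 46.2%, against 45.8% for regions with no start nearby and 48.2% for protein-coding promoter regions. A median of 71.0% of their bases was repeat-masked, against 71.2% and 55.1%, respectively. Runs of at least 10 CA or TG units were present in 367 regions (47.3%), against 48.6% of the regions with no start and 43.6% of the protein-coding promoter regions. CpG island-like composition, a GC content of at least 55% with an observed to expected CpG ratio of at least 0.65, was found in 10 regions (1.29%), against 0.683% and 2.10%. The 31 bases at the strongest summit occurred once on the chromosomes searched in 571 regions (73.6%) and 10 or more times in 99 (12.8%).

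Repeat content was higher in the more recurrent regions, up to 9 libraries. The median repeat-masked share was 45.4% in regions found in 2 libraries, 78.7% in those found in 3 to 5 and 85.0% in those found in 6 to 9, and it was 71.4% in those found in all 10. CA or TG runs were present in 40.5%, 51.0%, 55.0% and 47.4% of these groups. The median width increased from 305.5 to 380.5, 506 and 578 bp, and merging more intervals widens a region. The share with a summit word found once fell from 80.4% to 72.8%, 62.0% and 52.6%. Of the 61 regions with no repeat-masked base, 37 were found in 2 libraries and 1 in 6 or more.

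Short promoter motifs were rare in the 201 bases around the summits. The GC box (GGGCGG, either strand) was found in 17 lncRNA promoter regions (2.19%), 2.23% of the protein-coding promoter regions, 1.18% of the regions with no start within 3 kb and 1.40% of all regions. The CCAAT box (CCAAT) was found in 9.41%, 8.90% and 9.40% of the lncRNA promoter, protein-coding promoter and all regions, the TATA box (TATAAA) in 5.93%, 4.54% and 5.89%, and the E-box (CACGTG) in 5.93%, 5.43% and 5.18%. The NRF1 site (TGCGCATGC) was found in 4 lncRNA promoter regions, and the ETS site (CCGGAAG), the cAMP response element (TGACGTCA) and the CTCF core (AGGGGGCG) in 1 each. A match describes the letters in the window and does not show binding.

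The lncRNA promoter regions were spread over all 19 chromosomes. Chromosome 5 held 68 and chromosome 13 held 64 of them, and chromosome 13 had the highest density with 0.531 per Mb. Chromosome 3 had the lowest, with 0.162 per Mb and 26 regions. Of the lncRNA genes on a chromosome, between 4.46% (chromosome 3) and 11.0% (chromosome 18) had a region.

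The 19 regions found in all 10 libraries were the most strongly enriched, with a median fold of 5.14, whereas regions found in 2 libraries had a median fold of 3.83. Here the fold is the number of reads at the summit over the local background, each with 1 read added, and the rank is the position of a peak in its own list by p, as a percentage of the list. Because recurrence and rank come from the same peaks, this order is a description.

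The Gm33838 region had the strongest peak. It lay at chr9:35305124-35305672, with a median rank of 0.0148% of each list. The fold was 32.1 at the lowest, 33.7 at the median and 34.0 at the highest of the 6 F0 CD libraries, and 34.4, 35.6, 33.5 and 33.6 in F0 WD replicates 1 to 4. The ranges of both diets overlapped. The sequence matched itself best at a distance of 234 bp, where 57.5% of the bases were identical, and 234 bp is the unit length of the mouse major satellite, the repeat of pericentromeric heterochromatin.

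The same period was found at both Gm26870 regions on chromosome 9. At chr9:3037891-3038314 the identity at 234 bp was 92.6% and at chr9:3018233-3018552 it was 67.4%. In the latter region the fold was 8.27, 10.0 and 10.5 at the lowest, median and highest of the F0 CD libraries, and 11.8, 11.3, 8.18 and 9.49 in the F0 WD libraries. In the former it was 3.98, 5.67 and 6.80 in F0 CD and 6.42, 4.45, 3.96 and 7.17 in F0 WD. Neither region separated the diets. Among all 510 regions found in every library, 9 had their best period at 234 bp with over 50% identity (periods up to 400 bp were tried), namely these 3 of 19 lncRNA promoter regions and 6 of 68 protein-coding promoter regions, and none of the 393 regions with no start within 3 kb.

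The Gm47882 region on chromosome 13 had a median rank of 0.653%. It was also repetitive, with a best period of 6 bp at 82.3% identity and 74.7% of its bases repeat-masked, and its summit word occurred 13 times. The region held 39 units of TTAGGG, the telomere repeat unit. The fold of the Gm47882 region was 9.22, 10.1 and 11.7 at the lowest, median and highest of the F0 CD libraries. It was 10.2, 9.64, 12.6 and 9.75 in the F0 WD libraries, so that the diets overlapped.

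A pair of regions lay in ribosomal sequence or beside it. The Gm26917 region at chr17:39843045-39846591 was the widest of all the lncRNA promoter regions, with 3547 bp, and had a GC content of 67.9%. It overlapped the annotated rRNA gene CT010467.1 (chr17:39846353-39848827). The fold was low, between 2.58 and 3.20, but the summits held 275 to 358 reads in the 3 libraries where reads could be solved, and the median rank was 0.315%. The Gm15564 region at chr16:35981553-35981911 had a fold of 12.2, 15.6 and 16.6 at the lowest, median and highest of the F0 CD libraries and of 17.4, 13.7, 16.2 and 15.5 in F0 WD. The letters of its window are those of the large ribosomal subunit RNA, as background knowledge that was not matched to a reference here. The alignment admitted several placements per read before a filter on mapping quality, so the copy of a multicopy sequence that a read came from is uncertain for these regions.

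**Figure D3:**
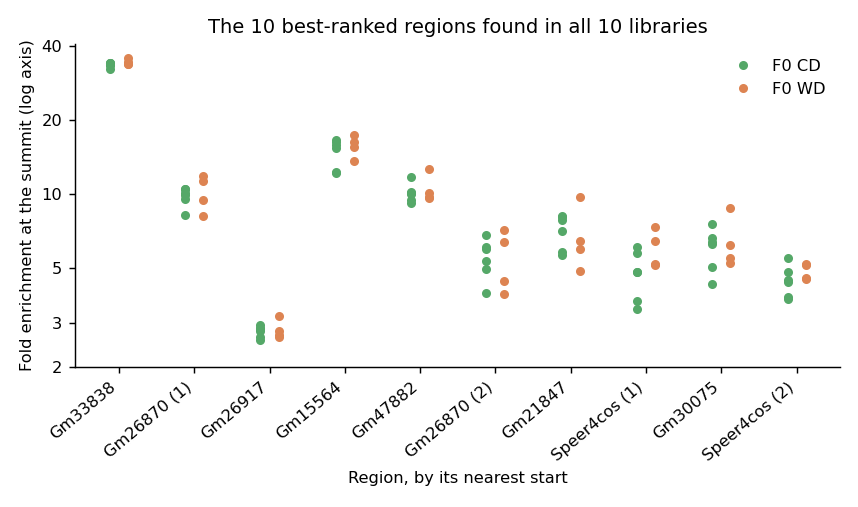
Fold enrichment at the summit (y axis, log axis) in each of the 6 F0 CD and 4 F0 WD libraries (points) for the 10 best-ranked lncRNA promoter regions found in all 10 libraries (x axis, in order of median rank, with numbers in parentheses for genes with more than 1 region). Gm33838 stands above the others at a median of 33.7, Gm26917 is lowest at 2.79, and the points of both diets overlap in each region.

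The Gm21847, Speer4cos and Gm43391 genes form a cluster of antisense lncRNAs near the Speer genes of chromosome 5, which encode a rodent family of testis-expressed proteins. With 5 regions Gm43391 had the most, and Gm21847 and Speer4cos had 4 each, while 680 of the 723 genes had 1. At Speer4cos, chr5:15680579-15680932 covered the annotated start and had a peak in all 10 libraries. The fold there was 3.42, 4.83 and 6.13 at the lowest, median and highest of the F0 CD libraries and ran from 5.17 to 7.37 in F0 WD. A second Speer4cos region found in all libraries, chr5:15678976-15679403, had a median fold of 4.54. At Gm21847, chr5:15522118-15522429 had a median fold of 6.80 in all 10 libraries. The 5 Gm43391 regions had peaks in 2 to 8 libraries, and 2 of them covered a start. Repeat-masked bases made up 8.76% of the first Speer4cos region, but 96.6% of the Gm43391 region at chr5:15470206-15470499. The summit word of the Gm21847 region occurred 5 times and those of 4 of the 5 Gm43391 regions 2 to 12 times. Reads at near-identical copies cannot be told apart.

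Short periods were common in the other regions found in all libraries. The Gm30075 region at chr7:73237012-73237275 had a summit word that occurred 9700 times and a median fold of 6.25. The 4930520K02Rik region at chr10:23620914-23621735 had a best period of 10 bp and a median fold of 5.53, and the Gm36107 region at chr14:106262966-106264038 a best period of 14 bp and a median fold of 5.14. The remaining 7 (Gm49439, AW495222, Gm48265, Gm15940, 9030616G12Rik, Sox5os1 and 4930507D10Rik) had median folds of 3.36 to 4.73. After Gm26917, the widest regions were those of Gm36107 (1073 bp), Gm44837 (1064 bp), AC154492.1 (1048 bp) and Gm6117 (1047 bp), found in 10, 7, 6 and 8 libraries.

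Among lncRNA genes of known function, 3 of 13 imprinted genes (23.1%), 3 of 36 genes at developmental regulator loci (8.33%) and 1 of 30 widely expressed genes and small RNA hosts (3.33%) had a region, and the share over all lncRNA genes was 7.67%. The lists are short and these shares were not tested. The Meg3 region at chr12:109548593-109548938 lay 219 bp from the start of this maternally expressed transcript of the Dlk1-Dio3 domain, and held 14 reads in F0 CD replicate 5 and 20 in F0 WD replicate 1. The Snhg14 region at chr7:59862274-59862627 lay 241 bp from a start of this paternally expressed host of small nucleolar RNAs. Its peaks held 38 and 16 reads in F0 CD replicates 3 and 4, and 22, 24 and 26 in F0 WD replicates 1, 2 and 4, so that the diets overlapped. The Nctc1 region at chr7:142560642-142560984, in the Igf2 and H19 domain, held 13 reads in 1 F0 CD and 15 in each of 2 F0 WD libraries. Within 3 kb of any annotated start, 9 of the 13 genes had a peak in some library and 6 in at least 2, including Rian with 3 libraries and Mirg and Nespas with 2 each. H19 had a peak in 1 library, and Kcnq1ot1, Airn, Igf2os and Peg13 had none.

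At the developmental regulator loci, the Fendrr gene, which lies beside Foxf1 and acts in heart and body wall development, had 2, with peaks in 3 and 4 libraries and 13 to 21 reads in each. The Tbx3os1 region had peaks in 2 F0 WD libraries with 18 and 17 reads and in no F0 CD library, for which Fisher's exact test gives p = 0.133. The Tbx3os2 region had peaks in 2 libraries of each diet. No library had a peak within 3 kb of a start of Hotair, Hoxaas3, Dlx1as or Six3os1.

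Among the 30 widely expressed lncRNAs and hosts of small RNAs, Pvt1, the neighbour of the Myc gene, had the only region. It lay 50 bp from a start, at chr15:62038893-62039207, and held 19 reads in 1 F0 CD and 15 and 19 in 2 F0 WD libraries. Malat1, Tug1, Miat and Gas5 had no peak within 3 kb of a start in any library, and Neat1 had a peak in 1. None of the 8 regions of the 3 lists had a Fisher p under 0.05.

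Genes that carry RIKEN clone names of testis libraries were not set apart. They made up 77 of the 776 regions (9.92%) and 984 of the 9421 annotated lncRNA genes (10.4%). A region was found at 7.52% of them and at 7.69% of the other lncRNA genes. Their regions had peaks in a mean of 3.58 libraries, against 3.79 for the other regions.

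The share of lncRNA promoter regions with a peak differed between diets by less than the spread of the libraries. It was 32.0% at the lowest, 34.5% at the median and 57.6% at the highest of the F0 CD libraries, with a mean of 39.5% ± 10.3 (SD, n = 6). It was 38.5%, 39.4%, 36.6% and 25.8% in F0 WD replicates 1 to 4, with a mean of 35.1% ± 6.32 (SD, n = 4). The difference was -4.39 ± 5.24 percentage points (SE), with an exact two-sided permutation p of 0.510 over 210 arrangements (adjusted p = 0.594 over 7 tests). F0 CD replicate 2, which held the longest list, had the highest share, and without it the difference was -0.953 percentage points. Without F0 WD replicate 4, which had the lowest share, it was -0.996.

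The lncRNA promoter share of all regions with a peak, which does not depend on the length of the list alone, was close to even. In F0 CD it was 3.31% ± 0.164 (SD, n = 6), and F0 WD had 3.30% ± 0.139 (SD, n = 4, exact permutation p = 0.83). The median fold at lncRNA promoter regions minus that over all regions of the same library was -0.0804 ± 0.0973 (SD, n = 6) for the chow mice and -0.0284 ± 0.0428 for the Western diet mice (SD, n = 4), and the exact permutation test gave p = 0.381. Within a promoter window of 1 kb this last difference was 0.131, with an exact permutation p of 0.0286. That p is unadjusted and was the only one under 0.05 among the alternatives run for this difference. In 17 others the difference kept its direction, and among regions in at least 3 libraries it changed sign (-0.00634, exact permutation p = 0.919).

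**Figure D4:**
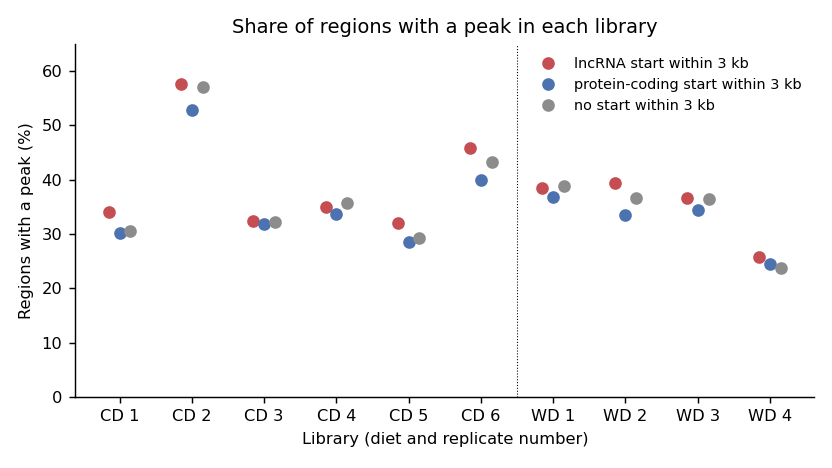
Percentage of regions with a peak (y axis) in each library (x axis, 6 F0 CD and 4 F0 WD libraries, separated by a dotted line) for lncRNA promoter regions, protein-coding promoter regions and regions with no start within 3 kb. The lncRNA points run from 25.8% in F0 WD replicate 4 to 57.6% in F0 CD replicate 2 and lie above the protein-coding points in all 10 libraries.

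At single regions, 7 of 776 lncRNA promoter regions (0.902%) had an unadjusted Fisher p under 0.05, and the background over all 24550 regions was 1.03%. Toward F0 WD there were 5 (0.644%, background 0.558%) and toward F0 CD 2 (0.258%, background 0.473%). This balance was not stable, with 11 and 13 by mid-p, 6 and 11 without F0 CD replicate 5, and 3 and 7 without F0 WD replicate 2. The background rose as well, to 539 of all 24550 regions by mid-p, from 253 by the exact p. It was 2.01% without F0 CD replicate 5, with 721 lncRNA promoter regions left. Without F0 WD replicate 2 it was 1.07%, with 719 left. The counts were not tested against these backgrounds at the lncRNA promoter regions. None passed after Benjamini-Hochberg adjustment over all regions, where the lowest adjusted p was 1. The smallest p that 4 against 6 libraries allow is 0.00476, and the lowest at a lncRNA promoter region was 0.0333. Over 24550 regions a p of 0.00476 can pass this adjustment only if a great many regions reach it. The adjustment could therefore not decide whether single regions differ between the diets. No lncRNA promoter region separated the diets completely at the authors' q-value of 0.05. At a q-value of 0.01 the CT025659.1 region did, with an unadjusted Fisher's exact p of 0.00476. The values of all 7 follow.

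**Figure D5:**
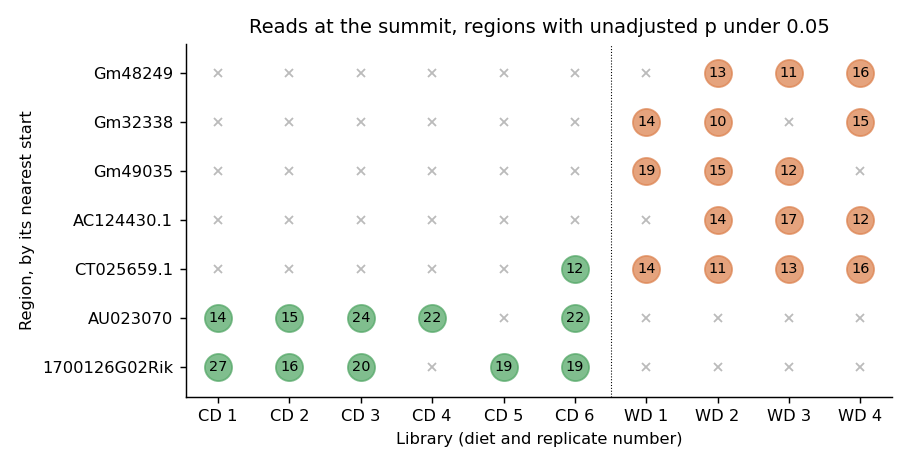
Reads at the strongest summit (number in each circle) in the 6 F0 CD and 4 F0 WD libraries (x axis) for the 7 lncRNA promoter regions with an unadjusted Fisher p under 0.05 (y axis), where a cross marks a library with no peak. The first 5 rows were found in 3 or 4 F0 WD libraries and at most 1 F0 CD library, and the last 2 in 5 F0 CD libraries without any in F0 WD.

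Among the regions found more often in F0 WD, 4 had peaks in 3 of 4 F0 WD libraries and were missing from F0 CD (Fisher's exact p = 0.0333). Leaving out any of the 3 libraries with a peak brought the exact p of each to 0.0833. The Gm49035 region at chr14:121518576-121518924 lay in an intron of its lincRNA gene, 188 bp from the start, and contained no repeat-masked base. The reads at its summit numbered 19, 15 and 12 in F0 WD replicates 1, 2 and 3, with folds of 4.48, 5.14 and 3.92.

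The Gm32338 region at chr10:41137980-41138323 covered the start of its lincRNA gene, and 9.01% of it was repeat-masked. The F0 WD replicates 1, 2 and 4 had 14, 10 and 15 reads at its summit. These counts lie close to the fewest reads at which a peak was called in those libraries.

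The Gm48249 region at chr10:20284837-20285199 lay in an intron 1427 bp from the start and contained a GT run, and its summit word occurred 200 times. Its summit counts were 13, 11 and 16 reads for F0 WD replicates 2, 3 and 4. The AC124430.1 region at chr18:62143446-62143859 lay 828 bp from the start and was 83.1% repeat-masked. It held 14, 17 and 12 reads in the same 3 libraries. The 12 reads in F0 WD replicate 4 equal the fewest at a called summit of that library, and the peak's rank there was 97.2% of the list.

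The CT025659.1 region at chr17:65914756-65915091 was the only lncRNA promoter region found in all 4 F0 WD libraries and in 1 F0 CD library (Fisher's exact p = 0.0476). From F0 WD replicate 1 to replicate 4 its summit had 14, 11, 13 and 16 reads, and F0 CD replicate 6 had 12. The folds were 3.32, 3.86, 4.23 and 3.24 in F0 WD and 2.90 in the F0 CD library. In reads the F0 CD value lay within the F0 WD range, and in fold below it.

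The regions found more often in F0 CD both lay in an intron of a coding gene and were almost wholly repeat-masked. The AU023070 region lay inside Corin, the gene of a protease that activates a cardiac hormone, 1829 bp from the lncRNA start. It held 14, 22 and 24 reads at the lowest, median and highest of 5 F0 CD libraries and had no peak in the 4 F0 WD libraries (Fisher's exact p = 0.0476).

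The 1700126G02Rik region at chr6:143218504-143218824 lay inside Etnk1, which encodes an ethanolamine kinase, 2624 bp from the lncRNA start. It held 16, 19 and 27 reads at the lowest, median and highest of 5 F0 CD libraries and had no peak in F0 WD (Fisher's exact p = 0.0476). Repeat-masked bases made up 93.1% of it and 93.9% of the AU023070 region.

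Over the 776 regions, detection was higher in F0 WD at 345, higher in F0 CD at 379 and equal at 52, with a median difference of 0 percentage points, which was also the median over all regions. Over all 24550 regions these counts were 11541, 11539 and 1470, and the balance at lncRNA promoter regions was not tested against them. Peaks in F0 CD libraries alone were found at 172 regions (22.2%) and in F0 WD libraries alone at 34 (4.38%), against 21.9% and 5.29% of all regions. There were 6 libraries of the former and 4 of the latter.

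The share of regions with a peak in a library is set in part by the rule, which kept regions with a peak in at least 2 libraries, and is compared between classes as a description, without a test. For lncRNA minus protein-coding promoter regions the difference in share was 3.09 ± 1.96 percentage points (SD, n = 10), it was above 0 in 10 of 10 libraries, and it ranged from 0.724 to 5.95. Among regions found in at least 3 libraries it was -0.0386 percentage points, and with lists of equal length 1.37. The difference in median fold was within the spread of the libraries, with lncRNA minus protein-coding at 0.0200 ± 0.0718 (SD, n = 10, exact sign-flip permutation p = 0.312). Within 1 kb this difference in fold was 0.0636 (exact sign-flip permutation p = 0.0215, unadjusted). With unique summit words, added after seeing the data, it was 0.0470 (exact sign-flip permutation p = 0.00391, unadjusted). In 3 other alternatives it changed sign, and in 14 it kept its direction with a p above 0.05.

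Against regions with no start within 3 kb the difference in share was smaller. The share with a peak was higher by 1.34 ± 1.56 percentage points (SD, n = 10), above 0 in 8 of 10 libraries, again as a description. Among regions found in at least 3 libraries the difference was -0.0664. The median fold was lower by 0.0732 ± 0.0910 (SD, n = 10), with no library above 0 (exact sign-flip permutation p = 0.0156, adjusted p = 0.0547 over 7 tests). That adjustment included the tests on class detection, whose outcome the rule set in part. The difference in fold was 0 in F0 CD replicates 3 and 5 and F0 WD replicate 1, so its p rests on the other libraries. Its unadjusted p was above 0.05 in 7 alternatives and below in 12. With unique summit words, added after seeing the data, the difference was -0.0151 (exact sign-flip permutation p = 0.203).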

How the data were processed

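The data were 1 deposited ATAC-seq peak list per mouse (6 F0 CD, 4 F0 WD), from sperm of the cauda epididymis. Reads were processed by the authors with Trim Galore 0.6.10 for trimming, Bowtie2 2.4.5 for alignment (mm10, the UCSC name of GRCm38) and Picard 2.24.0 for duplicates. Peaks were called by MACS2 2.2.7.1 in single libraries at a q-value of 0.05, without pooling. The deposited fold enrichment is a ratio of summit reads to local background. The authors gave p and q on a −log10 scale. A deposited integer score entered no test. As the lists hold no counts per region, the count model of the study was not fitted.

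The members, gene lists and tests were chosen with earlier results of these data known. Regions were named where the unadjusted p was under 0.05, where they were among the 10 best by median rank of those in all libraries, where they belonged to a listed gene (testis clone names are only summarised), and for the 5 widest and the genes with most regions. Fisher's exact test (two-sided) compared detection at each of the 24550 regions, with Benjamini-Hochberg adjustment. Exact permutation over 210 splits compared the diets, and exact sign flips over 1024 arrangements compared classes within libraries. Benjamini-Hochberg adjustment ran over these 7 tests, and no p is given for the 2 on class detection, since the rule used detection. Those 2 still entered the adjustment, so the adjusted p-values of the other tests depend on them. The p-values measure only the spread between these mice. Summit reads were solved from the fold and a Poisson p where −log10 p was under 60, and 99.994% came out whole within 0.001. Repeat-masking was read from the case of the GRCm38 reference and starts from GENCODE M21. The sequences of some regions are not reported here. Tests were checked on simulated data. Alternatives changed the q threshold, the number of libraries, the overlap, the window, the distance, coding starts nearby, list length, mid-p, single libraries and the replicate number as a block, and unique summit words were added after seeing the data. The software was Python 3.11.15 with scipy 1.17.1, numpy 2.4.6, pandas 2.3.3, matplotlib 3.10.9 and pysam 0.24.0, plus samtools 1.23.1.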

Additional observations from a re-analysis of the deposited data

Results flagged for a closer look

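Of 20 sets of library values tested (10 measures in each diet), 2 had a library far from the others, where chance alone gives about 1 in 20. In F0 WD replicate 4 the median fold at lncRNA promoter regions exceeded that at protein-coding promoter regions by 0.154, against 0.020 to 0.025 in the other F0 WD libraries. The same library had peaks in 3 of the 4 lncRNA promoter regions on chromosome X, and the other F0 WD libraries in 2 each. With 3 tied counts the ratio of gap to range is 1 whatever the size of the gap, so this difference of 1 region carries no weight and the chance rate does not apply to it.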

How the results depend on the processing

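The values are for lncRNA promoter regions, and the causes of the changes were not tested. The 7 of 776 regions with an unadjusted p under 0.05 became 3 of 277 within 1 kb, so the class itself was smaller there. With mid-p they became 24 of 776, and over all 24550 regions the count rose from 253 to 539. With the replicate number as a block there were 0, where no smaller p than 0.125 is possible. With a library left out there were 8 to 19 among 666 to 736 regions, and 1.07% to 2.01% among all regions. The counts were 14 to 19 without an F0 CD library and 8 to 10 without an F0 WD library. At a q-value of 0.01 the AC124430.1 and AU023070 regions lost their unadjusted p under 0.05, as did Gm48249, Gm32338 and AU023070 with lists of equal length and Gm32338 with the larger overlap. The CT025659.1 region separated the diets completely at a q-value of 0.01, with a difference of 100 percentage points. The titles' replicate numbers are shared by the diets, and same-numbered libraries did not deviate together (correlations of -0.0115 to 0.0337). The lncRNA share of regions with a peak (F0 WD minus F0 CD) changed sign among regions in at least 3 libraries (0.113), with peaks joined at a larger overlap (0.0220), without coding starts nearby (0.0181) and with the replicate block (0.0417), and ran from -0.0738 to 0.0588 with a library left out. The fold relative to all regions was -0.00634 in at least 3 libraries, 0.131 within 1 kb, 0.0196 without coding starts nearby and 0.0922 with lists of equal length. The lncRNA minus protein-coding detection was -0.0386 in at least 3 libraries and 1.37 with lists of equal length. The same difference in fold was -0.0564 in at least 3 libraries, 0.0636 within 1 kb, -0.00222 with lists of equal length, 0.0470 with a unique summit word (chosen after seeing the data), and -0.00721 to 0.0285 with a library left out. Detection minus that of non-promoter regions was -0.0664 in at least 3 libraries, 0.878 within 1 kb, 1.03 by the midpoint, 1.09 without coding starts, 0.846 with equal lists, 0.524 with a unique word, and 0.785 to 1.47 with a library left out. The same difference in fold was -0.0514 within 1 kb, -0.0618 with equal lists, -0.0668 with the replicate block, -0.0151 with a unique word, and -0.0973 to -0.0569 with a library left out. The difference between diets in the share of regions with a peak kept its direction and its side of the threshold under every alternative run. A missing peak allows several reads, which limits all detection values.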

Other observations

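Chromosome X was outside the rule. It held 58 regions with a peak in at least 2 libraries, 4 of them lncRNA promoter regions, and each library had a peak in 2 to 4 of these. Regions with a peak in a single library were also outside the rule. On chromosomes 1 to 19 there were 88543 of them, and 2506 (2.83%) lay within 3 kb of a lncRNA start by the same rule, against 3.16% of the regions found in at least 2 libraries. The number of such lncRNA regions ran from 171 to 439 per library, with the highest in F0 CD replicate 2.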
